A study of Mus musculus with 18 samples.

Results

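Ribosomal protein genes were taken as the protein-coding genes whose symbol is Rpl, Rps, Rplp or Rpsp followed by a number and at most 1 further letter and 1 further digit. The rule found 82 genes, 51 of the large ribosomal subunit and 31 of the small subunit, among 52636 genes and 22027 protein-coding genes. A further 5 pseudogenes with such names were left out, and ribosomal protein genes with other names (Rpsa, Fau and Rpl36al) are described beside the members. All mice were adult C57BL/6 males aged 8 weeks, and liver, brain and testis were each sequenced from wild-type (WT) animals and from PCGF6 knockout (KO) animals, with 3 libraries per genotype and tissue and 18 in all. PCGF6 is a subunit of a polycomb repressive complex, and the comparison of genotypes asks which genes change without it. The titles number the libraries 1 to 3 in WT and 4 to 6 in KO of each tissue, and these numbers serve as names below. No label says how the allele was made or that the libraries came from separate animals, so the p-values measure the spread between these libraries, which may be technical.

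A ribosome has a small subunit, which reads the mRNA, and a large subunit, which joins amino acids and passes the growing chain through an exit tunnel. Each subunit holds a set of proteins that cells make in nearly equal amounts, and most of these proteins come from a single active gene. Mammalian genomes also hold many processed copies of these genes, most of them pseudogenes, and a few intact paralogs. Male germ cells are known for silencing the X chromosome during meiosis and for expressing autosomal paralogs of X-linked ribosomal protein genes.

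Rpl39l and Rpl10l are shown first because the largest tissue difference among the members lies in them. Rpl39l is the paralog of Rpl39, a small protein that lines the exit tunnel. Both coding sequences hold 156 bases, and 133 positions (85.3%) were identical. The sequences are from the GENCODE M21 transcripts of mouse build GRCm38 (mm10), and capitals mark the 23 bases that differ.

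Rpl39: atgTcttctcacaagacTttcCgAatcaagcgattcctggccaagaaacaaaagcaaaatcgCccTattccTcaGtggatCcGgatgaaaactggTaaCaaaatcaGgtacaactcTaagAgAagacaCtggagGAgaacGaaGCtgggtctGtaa
Rpl39l: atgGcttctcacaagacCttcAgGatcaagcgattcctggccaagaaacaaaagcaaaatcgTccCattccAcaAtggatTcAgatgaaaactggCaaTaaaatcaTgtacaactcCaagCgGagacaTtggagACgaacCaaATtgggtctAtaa

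Rpl10l is the paralog of Rpl10, a large-subunit protein added late in subunit assembly, and mice need Rpl10l for male meiosis. Its coding sequence is as long as that of Rpl10, 645 bases, of which 547 (84.8%) were identical. The first 120 coding bases differ at 18 positions, in capitals.

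Rpl10: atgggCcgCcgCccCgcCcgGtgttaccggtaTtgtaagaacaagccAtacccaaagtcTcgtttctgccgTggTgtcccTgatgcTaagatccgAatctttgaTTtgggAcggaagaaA
Rpl10l: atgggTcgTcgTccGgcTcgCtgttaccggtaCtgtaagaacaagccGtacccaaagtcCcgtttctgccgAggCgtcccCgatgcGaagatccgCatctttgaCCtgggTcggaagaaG

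The other paralogs were farther from their parents: 73.3% of aligned coding positions were identical for Rpl3l and Rpl3, 67.5% for Rpl22l1 and Rpl22, 62.3% for Rps27l and Rps27 and 54.5% for Rpl7l1 and Rpl7. Rps27 and Rps27l also differ at their start sites. Ribosomal protein mRNAs usually begin in a pyrimidine tract (the TOP element), and the motif CTTTC was searched from 20 bases before to 30 bases after each RefSeq start. It occurred on the transcribed strand in 21 of the 62 members in the RefSeq promoter table (33.9%) and in 7.66% of all 27025 genes there. On the other strand it occurred in 7 members (11.3%) and in 7.30% of all genes. CTTTCC, which overlaps it, occurred on the transcribed strand in 12 members (19.4%) and in 2.83% of all genes, and on the other strand in 1 member and 2.69% of all genes. The 40 bases before and 20 bases from the start are printed for this pair, with CTTTC in capitals. They are GRCm38.p6 chr3:90213629-90213688 on the minus strand for Rps27 and chr9:66946046-66946105 on the plus strand for Rps27l. The Rps27l window holds no CTTTC.

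Rps27: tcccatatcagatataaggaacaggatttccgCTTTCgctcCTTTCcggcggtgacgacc
Rps27l: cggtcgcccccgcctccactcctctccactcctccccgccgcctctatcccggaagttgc

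Depth lay between 18990130 and 23529098 reads per library. Hepatocyte markers summed to at least 48910 FPKM in liver, neuron markers to at least 463.7 FPKM in brain and spermatid markers to at least 17370 FPKM in testis, each far above the other tissues, and Pcgf6 was lower in every KO than in every WT library (4.08 to 5.66 against 1.44 to 2.66 FPKM in liver, 4.58 to 5.29 against 3.30 to 4.43 in brain, 19.9 to 22.3 against 9.58 to 10.6 in testis). Testis library WT 3 stood apart from the other 5 testis libraries. Of the 82 members, 63 were highest in it among the 6 testis libraries and 1 was lowest. The share of all genes highest in WT 3 is not given here, so the count is not read as particular to the members. All 5 spermatid markers were lowest there, with a sum of 17370 FPKM against 20140 to 29580, while the sums of red cell markers (141.1 against 20.9 to 34.45 FPKM), leukocyte markers (30.6 against 17.8 to 22.5), Sertoli markers (555.3 against 361.1 to 462.1) and Leydig markers (736.9 against 437.2 to 600.1) were highest there. The sums of spermatogonia (52.3 against 36.85 to 44.5 FPKM), hepatocyte (9.97 against 4.25 to 9.54) and striated muscle markers (6.10 against 4.79 to 5.74) were also highest in WT 3. That of astrocyte markers was lowest (9.55 against 9.91 to 11.85). Single markers did not all follow their sum. Of the 5 Leydig markers 2 were highest in WT 3 and 1 lowest, and of the 5 spermatogonia markers 3 and 1. The part of these differences in the results for testis was not tested, and results that rest on this library are given with and without it. In whole tissue, fewer cells of a type and less RNA per cell cannot be told apart.

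Members of the ribosome were among the abundant mRNAs of each tissue, with a few low exceptions. FPKM, the deposited level per kilobase of gene length and per scaled library size, had a median over the members of 125.7 in WT liver, 51.0 in WT brain and 68.2 in WT testis, beside 0.554, 1.504 and 1.65 over all protein-coding genes. In liver and brain 77 members each reached 10 FPKM, and in testis 78 did. The highest members were Rplp1 (1425 ± 62.6 FPKM in WT liver, SD, n = 3), Rpl36 (735.7 ± 33.7) and Rpl41 (447.6 ± 9.85). In WT brain they were Rplp1 (770.8 ± 123.9), Rps15 (306.8 ± 29.7) and Rpl36 (281.0 ± 46.2), and in WT testis Rpl36 (740.1 ± 49.2), Rplp1 (637.4 ± 105.2) and Rpl41 (525.4 ± 63.1). In testis Rpl36 was above Rplp1 in every library, most closely in WT 3 (796.8 against 758.2 FPKM), although the ranges of the 2 genes overlapped. Rplp1 and Rplp2 are the acidic proteins of the stalk that recruits elongation factors, and Rplp0 anchors them. Rplp2 was lower than Rplp1 in FPKM, at 88.8 ± 5.67 in WT liver, 44.0 ± 5.48 in WT brain and 65.5 ± 12.6 in WT testis. The size of this gap depends on the annotated gene length that FPKM divides by, 499 bases for Rplp1 and 2072 for Rplp2. Their coding sequences hold 345 and 348 bases. In reads the gap was smaller, with 6795 for Rplp1 and 2801 for Rplp2 in testis WT 1.

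The lowest members in WT liver and WT brain were Rpl10l, Rpl39l and Rpl3l, described below, and in WT testis Rpl3l, Rpl24 and Rpl13a. Rpl24, a large-subunit protein, measured 1.90 ± 0.35 FPKM in WT liver, 1.05 ± 0.21 in WT brain and 1.39 ± 0.49 in WT testis. Its coding sequence has 4 near-identical genes elsewhere (at least 95% identity over at least 150 bases), and these held 72.9% of the reads of Rpl24 and its copies together over the 18 libraries. For Rpl17 the copies held 82.3% and for Rpl21 76.0%, so 3 members had more reads in copies than in the member. For Rps12 the share was 38.7% and for Rpl7a 36.0%. How the counting treated reads that match several places is not given in the sources used here, and the levels of these members are uncertain. Rpl13a was low with little in copies (2.69%). Of the 82 members, 75 had at least 1 near-identical copy.

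Together the members took between 1.21 and 1.82% of all reads of a testis library, 0.986 to 1.24% of a brain library and 1.32 to 1.48% of a liver library. The highest testis value was WT 3, and the other 5 lay between 1.21 and 1.36%. The order of the tissues depends on the denominator. As a share of TPM, which divides each gene's reads by its length, liver was lowest with 2.17% (mean of 6 libraries) and brain highest with 2.82%, while among reads outside the 100 most abundant other genes liver was highest with 2.43%. The FPKM of a library's median member lay between 61.5 and 83.0 for testis, 45.9 and 55.6 for brain, and 119.8 and 136.7 for liver.

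Rpl10l and Rpl39l were abundant in testis and close to 0 elsewhere. Rpl10l lies on mm10 chromosome 12 from 66283379 to 66284401. It measured 104.5, 159.2 and 156.2 FPKM in testis WT 1 to 3 and 118.8, 139.4 and 145.9 in KO 4 to 6. The 3 WT liver libraries had 0 reads, the 3 KO liver libraries 1 read, and the WT and KO brain libraries 1 and 2 reads. Against a floor of 3 reads per library, WT testis was at least 688.8-fold higher than WT liver. Against the single read in WT brain the ratio of scaled reads was 11820 (95% exact binomial interval 2120 to 466800, counting error only). Rpl39l lies on mm10 chromosome 16 from 10170226 to 10174911. It measured 240.8, 228.9 and 247.5 FPKM in testis WT 1 to 3 and 316.2, 228.6 and 244.3 in KO 4 to 6, which placed its WT mean 10th among the 82 members. WT liver had 2 reads of Rpl39l in all and WT brain 6, against 14735 in WT testis, ratios of 4314 (interval 1194 to 35620) and 2720 (1249 to 7413). No testis library overlapped a liver or brain library for either gene. Of the few reads outside testis, liver KO 5 and KO 6 and brain WT 3, KO 5 and KO 6 held 2, 3, 5, 2 and 4 Rpl39l reads and all Rpl10l reads came from 4 of them, liver KO 6 and the 3 brain libraries, with 1 each. Liver WT 2 and brain KO 4 held 2 Rpl39l reads each and brain WT 1 held 1. The first 5 libraries had spermatid marker sums of 4.199 to 11.4 FPKM against 0.71 or less in the other 7 (0.15 in liver WT 2 and 0.56 in brain KO 4). The part of such traces in these reads was not tested.

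Their parents showed the opposite order. Rpl10, on mm10 chromosome X from 74270812 to 74273135, measured 249.7, 281.8 and 274.9 FPKM in liver WT 1 to 3 and 274.9, 269.6 and 259.3 in KO 4 to 6. In brain it measured 59.6, 59.7 and 58.1 FPKM in WT and 60.2, 61.6 and 55.98 in KO. In testis it measured 17.0, 17.2 and 40.1 FPKM in WT and 16.3, 18.3 and 17.5 in KO. The highest testis value, in WT 3, was below the lowest in brain. Rpl39, on chromosome X from 37082520 to 37085402, measured 122.5 to 148.0 FPKM over the 6 liver libraries (median 139.2) and 32.4 to 65.4 in brain (median 45.15). In testis it measured 16.7, 16.0 and 31 FPKM in WT and 17.9, 14.6 and 15.4 in KO, all below every brain library. As a share of paralog plus parent FPKM, Rpl10l made up 79.6 to 90.3% in testis, 0.0291% at most in liver and 0.0648% at most in brain. The share of Rpl39l was 88.9 to 94.6% in testis, 0.20% at most in liver and 0.55% at most in brain. WT 3 gave the lowest share for both pairs in testis.

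The ratio of paralog to parent was compared between tissues for all 6 pairs with an exact two-sided permutation test on log2((paralog FPKM + 0.1)/(parent FPKM + 0.1)). With 6 against 6 libraries the smallest p is 0.00216, and p-values were adjusted over 18 comparisons, of which 16 passed 0.05. The log2 ratio of Rpl10l to Rpl10 was 14.02 higher in testis than in liver and 11.8 higher than in brain, and that of Rpl39l to Rpl39 13.4 and 11.7 higher (6 of 6 testis libraries above all others, exact permutation adjusted p = 0.00325 for each). These sizes depend on the pseudocount because the paralogs are near 0 outside testis. The comparisons of brain with liver for Rpl10l, Rpl39l and Rpl3l rest on paralogs at or near 0 reads and are not read here.

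**Figure D1:**
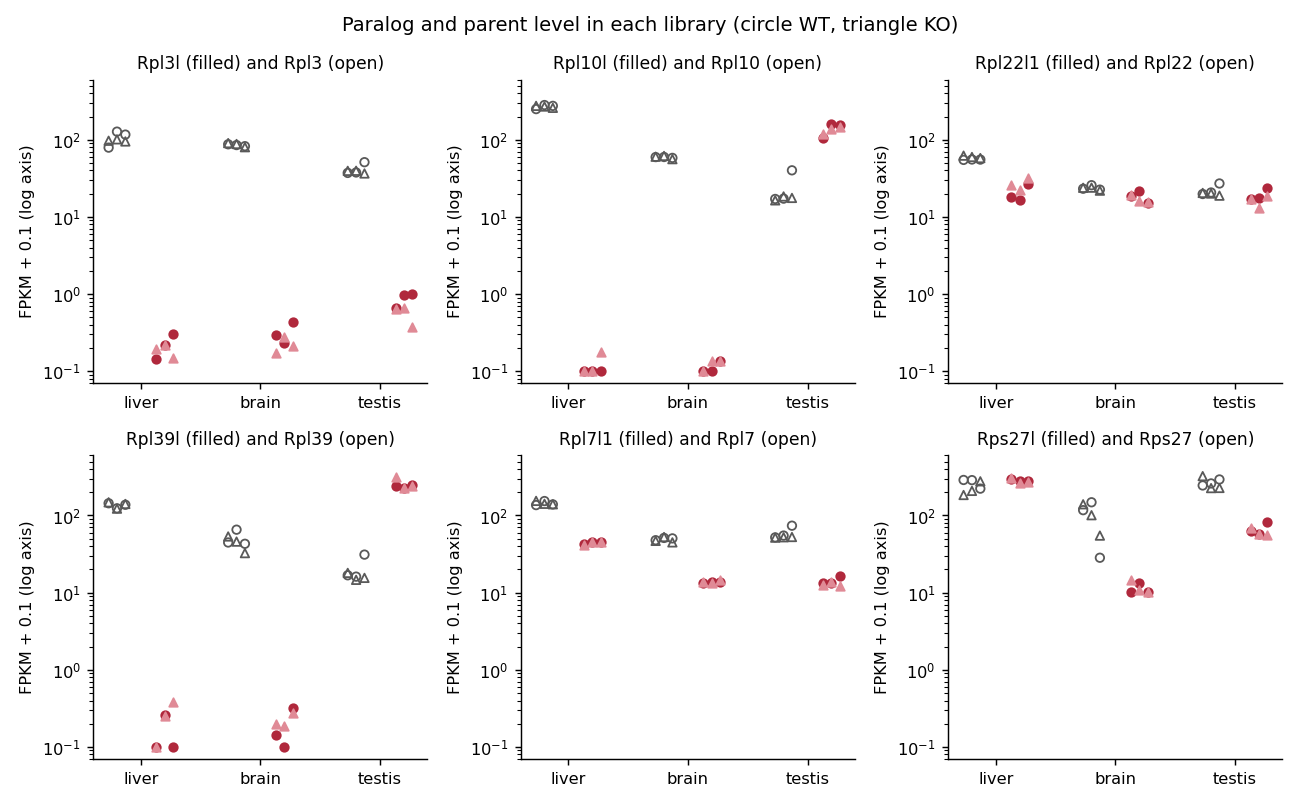
FPKM + 0.1 (log axis) of each paralog (filled) and its parent (open) in the 6 libraries of each tissue, circles for WT and triangles for KO. Rpl10l and Rpl39l stand above their parents in all 6 testis libraries and near 0 in liver and brain; Rps27l is level with Rps27 in liver only.

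Rps27l, a paralog of the small-subunit protein Rps27 and known as a p53 target, was highest in liver. It lies on mm10 chromosome 9 from 66946086 to 66949516. It measured 297.9, 278.7 and 280.8 FPKM in liver WT 1 to 3 and 304.9, 262.5 and 270.7 in KO 4 to 6. In brain it measured 9.98, 13.1 and 10.1 FPKM in WT and 14.3, 10.7 and 10.01 in KO. Testis lay between, with 62.0, 58.1 and 81.5 FPKM in WT and 67.9, 58.2 and 55.9 in KO. No 2 tissues overlapped. Its share of Rps27l plus Rps27 FPKM was 49.3 to 62.4% in liver, 17.4 to 21.8% in testis and 7.85 to 26.4% in brain. The log2 ratio to Rps27 was 2.26 lower in testis than in liver and 3.14 lower in brain than in liver (6 of 6 libraries below all liver libraries, exact permutation adjusted p = 0.00325 for both). Between testis and brain it was 0.87 higher in testis (exact permutation adjusted p = 0.0463), but the libraries overlapped and the call was lost without brain WT 1, WT 2, KO 4 or KO 5, and without any 1 of the 6 testis libraries (exact permutation adjusted p between 0.0633 and 0.0925). The parent was unsteady in brain: Rps27 measured 117.1, 148.2 and 28.2 FPKM in brain WT 1 to 3 and 139.6, 100.7 and 54.8 in KO 4 to 6. Rps27rt, a gene on chromosome 9 whose sequence matches all 255 coding bases of Rps27, was highest in brain WT 3 and KO 6, the libraries where Rps27 was lowest. With Rps27rt added to Rps27, an alternative chosen after seeing the data, the ratio was 1.46 higher in testis than in brain (exact permutation adjusted p = 0.002997). In liver too Rps27 varied less with its near-identical copies added. The highest liver library was 1.57 times the lowest for Rps27 alone and 1.15 times with copies. The liver share and ratios above leave the copies out.

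Rpl22l1, the paralog of the large-subunit protein Rpl22, was present in all 3 tissues. It measured 16.4 to 31.6 FPKM in liver (median 24.04), 15.2 to 21.7 in brain (17.2) and 12.9 to 23.8 in testis (17.3), so the tissues overlapped. Rpl22 measured 18.8 to 27.0 FPKM in testis, 21.8 to 25.7 in brain and 54.8 to 62.2 in liver. In the pair, Rpl22l1 made up 39.3 to 49.5% in testis, 39.9 to 45.8% in brain and 22.8 to 35.3% in liver. Its log2 ratio to Rpl22 was 1.07 higher in testis and 0.91 higher in brain than in liver (6 of 6 libraries above all liver libraries, exact permutation adjusted p = 0.00325 for both), and differed by 0.16 between testis and brain (exact permutation adjusted p = 0.14).

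Rpl7l1, whose protein acts in assembly of the large subunit, was measured beside Rpl7 in all 3 tissues. Its FPKM was 11.96 to 16.4 in testis, 13.1 to 14.3 in brain and 40.9 to 45.9 in liver. It made up 18.3 to 20.7% of the pair in testis, 20.3 to 24.2% in brain and 20.9 to 24.8% in liver. The log2 ratio to Rpl7 was 0.35 lower in testis than in liver (exact permutation adjusted p = 0.00325), 0.22 lower than in brain (0.0060) and 0.13 lower in brain than in liver, which did not pass (0.10).

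Rpl3l, known from striated muscle, was low in all 3 tissues. It measured 0.27 to 0.90 FPKM in testis, 0.07 to 0.33 in brain and 0.05 to 0.20 in liver, beside 36.5 to 51.1, 80.0 to 90.5 and 79.0 to 127.4 FPKM of Rpl3, a large-subunit protein near the peptidyl transferase centre. WT testis had 95 reads of Rpl3l, WT brain 30 and WT liver 9. Its log2 ratio to Rpl3 was 3.12 higher in testis than in liver and 2.48 higher than in brain (6 of 6 libraries, exact permutation adjusted p = 0.00325). These sizes depend on the pseudocount, because Rpl3l was near 0 in liver and brain. Part of each lies in Rpl3, which was lower in testis. Striated muscle markers summed to 4.79 to 6.10 FPKM in testis, 4.21 to 5.05 in brain and at most 1.501 in liver, and their part in the Rpl3l reads was not tested.

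All 4 members on the X chromosome were low in testis. They are Rpl10, Rpl39, Rps4x (a small-subunit protein) and Rpl36a (a large-subunit protein). Rps4x, on mm10 chromosome X from 102184941 to 102189394, measured 11.8, 12.95 and 29.6 FPKM in testis WT 1 to 3 and 11.6, 12.3 and 13.6 in KO 4 to 6. The same gene measured 63.7 to 72.5 FPKM in brain and 151.9 to 181.6 in liver. Rpl36a, on chromosome X from 134585654 to 134588062, measured 8.07, 10.02 and 19.9 FPKM in testis WT and 9.31, 8.43 and 8.99 in KO, against 29.4 to 42.6 in brain and 83.9 to 97.5 in liver. For each of the 4 genes no testis library overlapped a brain or liver library, and WT 3 was the highest testis library.

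On the deposited scale the median member differed between tissues, by an amount that changed with the scaling. Differences between tissues are therefore given after setting each library's median member to 0 on the log2 scale (centred values). Relative to the median member, Rpl10 stood at 22.98 to 48.3% in testis, 107.4 to 121.9% in brain and 201.0 to 223.0% in liver. Rps4x stood at 16.4 to 35.6%, 122.4 to 142.8% and 120.5 to 142.2% in the same order, Rpl39 at 23.6 to 37.4%, 70.6 to 117.5% and 96.7 to 120.1%, and Rpl36a at 13.1 to 23.99%, 61.0 to 76.7% and 67.2 to 74.0%. In limma on the 9 WT libraries, the centred log2 difference of testis minus liver was -2.66 ± 0.19 (SE) for Rpl10, -2.46 ± 0.19 for Rps4x, -2.03 ± 0.18 for Rpl36a and -1.83 ± 0.17 for Rpl39 (adjusted p at most 7.8e-07). Without testis WT 3 the values were -2.93, -2.74, -2.27 and -1.996, and in KO libraries -2.95, -2.77, -2.35 and -2.11. No autosomal member was as low as the highest of these 4. Testis minus brain gave -2.47 ± 0.19 for Rps4x, -2.03 ± 0.18 for Rpl36a, -1.78 ± 0.19 for Rpl10 and -1.71 ± 0.17 for Rpl39 (limma adjusted p at most 1.8e-06), and 1 autosomal member, Rpl13a, was as low. The median over the 4 X-linked members was -2.25 for testis minus liver and -1.91 for testis minus brain, beside 0.16 and -0.01 over the 78 autosomal members. Between brain and liver the X-linked median was -0.06. The same direction and call held for the 4 genes in testis under deposited FPKM, library totals and TPM. Among 96 other X-linked protein-coding genes with at least 10 FPKM in WT liver, a tissue outside this comparison, 83 (86.5%) were called lower in testis than in brain on the centred scale, with a median of -1.92, beside 50.8% and a median of -0.42 among 4033 autosomal genes chosen in the same way.

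**Figure D2:**
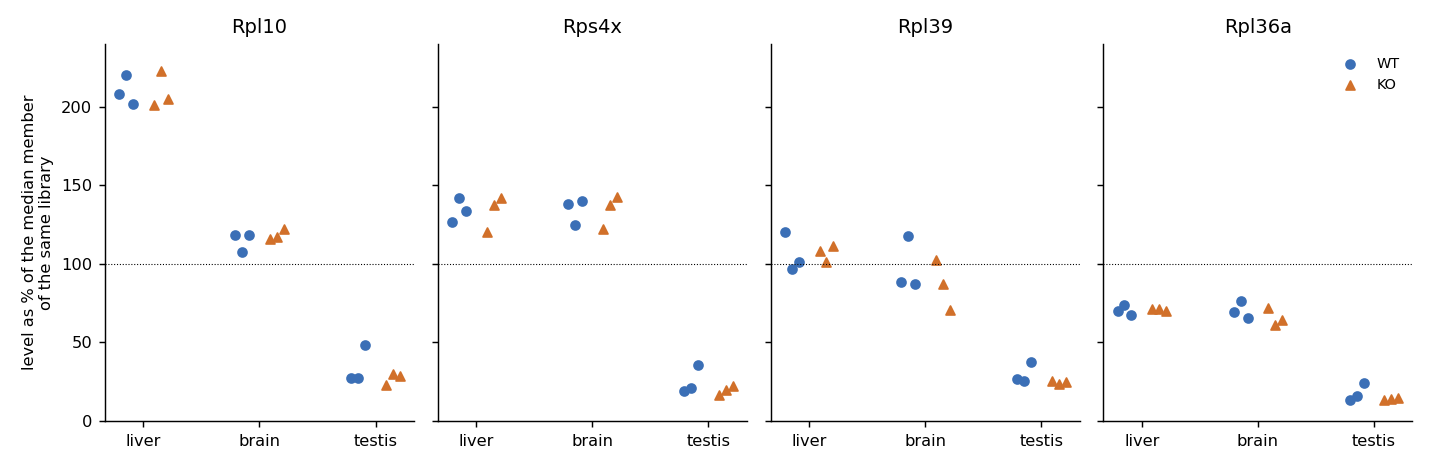
Level of the 4 X-linked members in each library, as a percentage of the median member of the same library, circles for WT and triangles for KO; the dotted line marks 100%. Every testis library lies below every liver and brain library, and testis WT 3 is the highest of the testis libraries.

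In WT testis against WT liver 62 of 82 members (75.6%) were called by limma on deposited FPKM, 5 higher and 57 lower in testis. Of the 23580 genes tested 85.5% were called, 56.7% higher and 28.8% lower. The 5 include Rpl10l, Rpl39l and Rpl3l, which passed the filter of 10 reads in 3 libraries only through their testis reads. These 3 members are also counted in the 2 other comparisons. Testis against brain gave 49 (59.8%), 39 higher and 10 lower, where 83.8% of genes were called, 48.9% higher and 34.9% lower. Without testis WT 3, 23 members were called lower in testis than in brain, and 2 higher in testis than in liver (3 without WT 1 and 3 without WT 2). Rpl10l and Rpl39l fall below the filter once 1 testis library is left out, so they are absent from these counts. Brain against liver gave 72 (87.8%), all lower in brain, where 68.0% of genes were called, 40.3% higher and 27.8% lower. The split depends on the scaling. With TPM it became 29 higher and 14 lower, 15 and 32, and 35 and 3; with library totals 20 and 23, 30 and 10, and 3 and 24. On the deposited scale the median of all genes was 0.88 (testis minus liver), 0.39 (testis minus brain) and 0.15 (brain minus liver), and that of the members -0.77, 0.36 and -1.13. Centred on the median member, 33 were called higher and 27 lower in testis than in liver, where 88.2% of all genes were called, 70.8% higher and 17.4% lower. Testis against brain gave 24 and 32 (81.7% of all genes, 41.4% higher and 40.3% lower). Brain against liver gave 37 and 10 (89.3% of all genes, 77.5% higher and 11.8% lower). Rpl10l, Rpl39l and Rpl3l are included but had few reads in both brain and liver. For such genes the centred difference largely reflects the shift of the median member, so a call on them is not read here.

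Of the autosomal members higher in testis than in liver on the centred scale, Rps28 (1.34 ± 0.13, SE) and Rps20 (1.23 ± 0.10) came next after Rpl39l, Rpl10l and Rpl3l, and of those lower Rps27l (-1.20 ± 0.11) had the largest difference (limma adjusted p at most 9.5e-07 for Rps28, Rps20 and Rps27l). Rps20 and Rps28 are small-subunit proteins. Rps20 measured 61.5, 61.3 and 70.1 FPKM in testis WT against 47.8, 51.4 and 54.5 in liver WT and 18.5, 19.96 and 17.3 in brain WT. No 2 tissues overlapped, and its centred difference was 1.38 ± 0.10 against brain. Rplp0, the stalk anchor, was 1.92 ± 0.09 higher in testis than in brain and 1.12 ± 0.09 higher than in liver on the centred scale. It measured 281.2, 282.1 and 340.9 FPKM in testis WT, 58.9, 59.0 and 61.9 in brain WT and 253.0, 250.1 and 270.4 in liver WT. Of its partners, for testis minus brain, Rplp1 gave -0.68 ± 0.09 (limma adjusted p = 2.5e-05) and Rplp2 0.16 ± 0.09 (0.13), which did not pass. For testis minus liver Rplp1 gave -0.27 ± 0.09 (limma adjusted p = 0.014) and Rplp2 0.45 ± 0.09 (0.00061), so Rplp2 was called higher there, as Rplp0 was.

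Rpl13a, a large-subunit protein known for a role in translational control after interferon, was the lowest of the members in testis relative to brain, with a centred difference of -2.57 ± 0.20 (limma adjusted p = 2.3e-07). It measured 2.64, 2.06 and 2.63 FPKM in testis WT, 10.96, 13.4 and 9.61 in brain WT and 11.3, 7.27 and 10.9 in liver WT. In brain against liver, Rps27l had the largest centred difference, -3.38 ± 0.11, followed by Rpl10 (-0.87 ± 0.19), Rplp0 (-0.80 ± 0.09), Rps18 (-0.80 ± 0.09) and Rps2 (-0.51 ± 0.09). Leaving out Rpl3l, Rpl39l and Rpl10l, which had few reads in both tissues, the largest in the other direction were Rpl13a (1.52 ± 0.20), Rpl22l1 (1.20 ± 0.16), Rpl21 (1.012 ± 0.20), Rpl3 (0.99 ± 0.14) and Rps15 (0.95 ± 0.09). For all 10 the limma adjusted p was at most 0.00095. These positive values are relative to the median member: none of the 5 genes was called higher in brain on deposited FPKM.

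**Figure D3:**
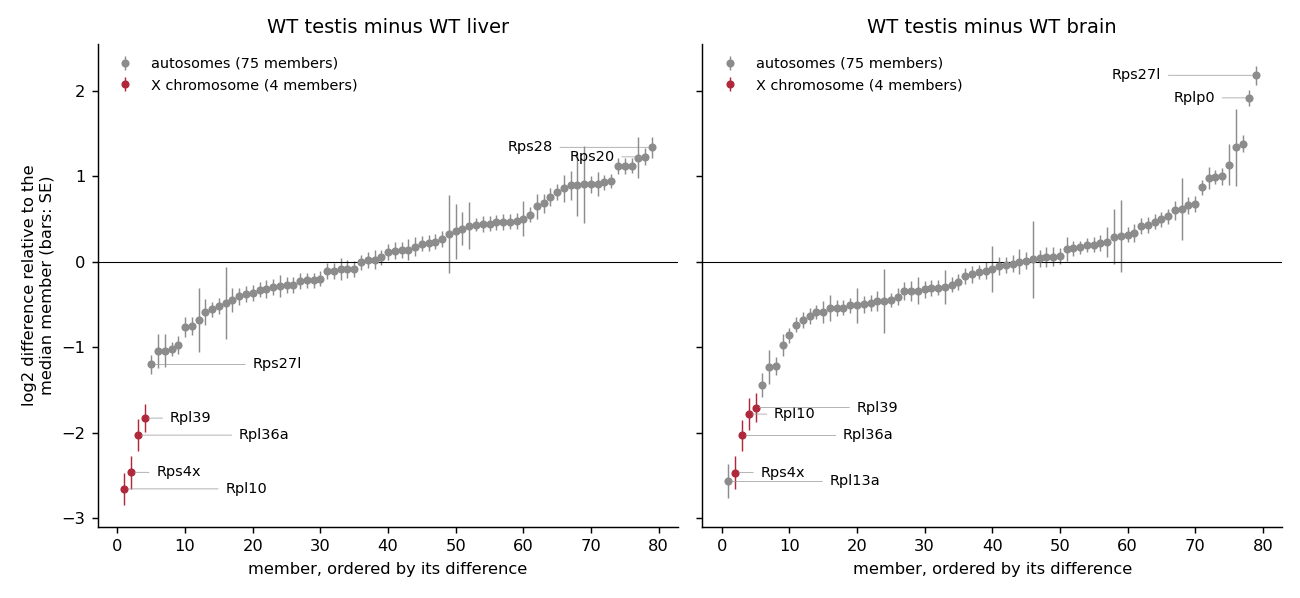
Centred log2 difference of each member between WT tissues (y axis, bars are SE), members in order of the difference (x axis); Rpl10l, Rpl39l and Rpl3l are off the scale or near 0 in one tissue and are not drawn. The 4 X-linked members (red) are the 4 lowest in testis minus liver and, with Rpl13a, the 5 lowest in testis minus brain.

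Loss of PCGF6 changed no member past the threshold in any tissue. In liver 79 members were tested, in brain 79 and in testis 82; Rpl10l, Rpl39l and Rpl3l had too few reads outside testis. By limma 0 were called in each tissue, where 0.0212% (liver), 0.0837% (brain, 0.067% higher and 0.0167% lower) and 0.00448% (testis) of all genes were called, and limma voom on recovered reads also called 0. At an unadjusted p under 0.05 there were 2 members (2.53%) in liver, 3 (3.80%) in brain and 1 (1.22%) in testis, against 4.38%, 4.46% and 4.13% of all genes. The smallest adjusted p was 0.89, 0.88 and 0.87. The genotypes did not overlap for 5 members in liver (4 higher and 1 lower in KO, 6.33%), 2 in brain (1 and 1, 2.53%) and 1 in testis (lower, 1.22%), against 9.52% of all genes in liver (4.94% higher and 4.58% lower), 9.08% in brain (4.99% and 4.09%) and 11.9% in testis (7.57% and 4.32%).

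In liver the smallest p-values belonged to Rpl23a, a protein at the exit of the tunnel, and to Rps27a, which is made as a fusion with ubiquitin. Rpl23a measured 116.3, 125.3 and 136.3 FPKM in WT and 145.7, 159.5 and 156.9 in KO, a log2 difference of 0.29 ± 0.09 (SE, limma adjusted p = 0.89). In brain the same gene measured 85.8, 103.6 and 81.3 FPKM in WT and 75.5, 78.2 and 73.9 in KO (-0.24 ± 0.09, limma adjusted p = 0.9998). Rps27a measured 92.5, 133.3 and 52.2 FPKM in liver WT and 51.3, 41.6 and 43.6 in KO (-0.93 ± 0.31, limma adjusted p = 0.9997). WT 3 lay just above the highest KO library, and WT 1 and WT 2 well above. Next in their direction in liver were Rps12 (0.17 ± 0.08) and Rpl22l1 (0.41 ± 0.20), higher in mean, and Rps27 (-0.27 ± 0.17), lower in mean. In brain Rpl17, a protein at the tunnel exit, measured 22.3, 23.6 and 23.9 FPKM in WT and 31.9, 24.9 and 31.5 in KO (0.33 ± 0.10, limma adjusted p = 0.88). With its near-identical copies added the difference was -0.08, the opposite sign. Rpl7a gave 0.23 ± 0.09, Rpl34 0.26 ± 0.16, Rpl41 -0.22 ± 0.12 and Rps12 -0.16 ± 0.09 in brain. In testis Rpl3l gave -0.68 ± 0.29, with 0.56, 0.87 and 0.90 FPKM in WT and 0.54, 0.56 and 0.27 in KO (95 and 54 reads). Rpl30 (0.66 ± 0.37, and 0.10 with its near-identical copies added), Rpl10a (-0.36 ± 0.20), Rps21 (-0.25 ± 0.16), Rps13 (0.14 ± 0.16) and Rpl39l (0.12 ± 0.13) had the next smallest p in their direction in testis. Without WT 3 the difference was -0.11 for Rpl10a and -0.08 for Rps21, and without WT 1 it was 0.21 for Rpl30.

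Read as a group, the members sat slightly below 0 in brain and testis. The median log2 difference was 0.02 in liver (45 members higher and 34 lower), -0.05 in brain (21 and 58) and -0.11 in testis (7 and 75), beside 0.00, 0.01 and 0.03 over all genes. These values rest on single libraries. Without testis WT 3 the testis median was 0.02. The brain median was 0.01 without WT 2 and 0.01 without KO 6. The liver median was -0.02 without WT 1 and -0.02 without KO 4, and also -0.02 with library totals and -0.03 with TPM. With 1 library left out in turn the testis median ranged from -0.18 to 0.02 and the brain median from -0.08 to 0.01. The testis median was -0.19 with library totals and -0.16 with TPM. No member passed the test of a genotype effect that differs between tissues: by limma interaction 0 of 79 were called in each of the 3 comparisons (0.0457%, 0.0626% and 0% of all genes called), with 2, 0 and 3 members at an unadjusted p under 0.05 for testis minus liver, testis minus brain and brain minus liver (2.53%, 0% and 3.80% of members, against 4.61%, 4.56% and 4.84% of all genes). The smallest was Rpl23a in brain minus liver, with a difference of -0.53 ± 0.13 (SE, limma adjusted p = 0.48).

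**Figure D4:**
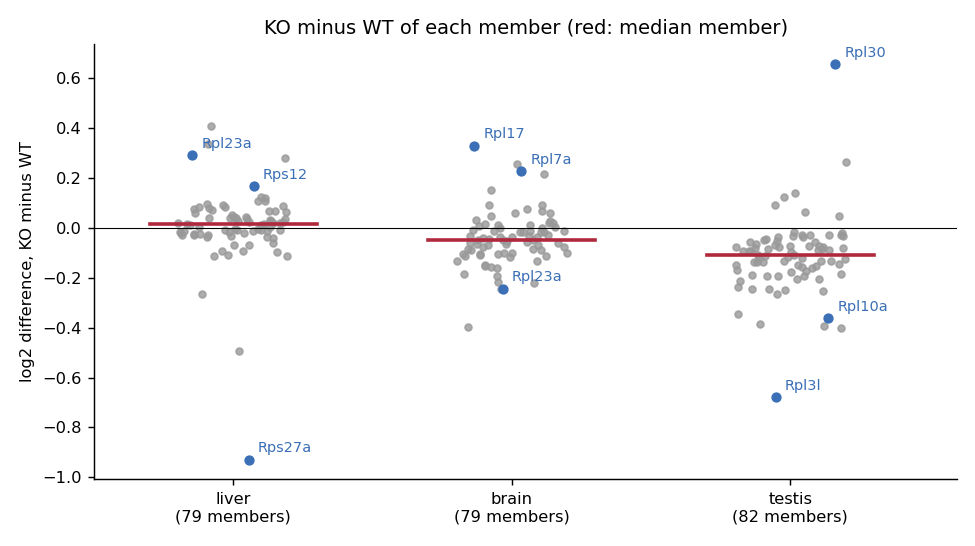
Log2 difference KO minus WT of each member (points, jittered sideways) in liver, brain and testis, with the median member as a red line and the members with the 3 smallest p-values of each tissue in blue. The medians are 0.02, -0.05 and -0.11, and no member passed the adjusted threshold.

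No paralog ratio passed the test between genotypes. With 3 against 3 libraries the exact permutation test cannot go below 0.1, and 2 of 18 comparisons reached it, both in testis. The log2 ratio KO minus WT was 0.47 for Rpl39l to Rpl39 and -0.57 for Rpl3l to Rpl3 (exact permutation adjusted p = 0.79 for both). The first was 0.19 without WT 3, and the second -0.34 without KO 6.

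Other genes of ribosome production and translation were likewise not called. Over 8 lists with 121 entries, limma called 0 entries in each tissue. Among the lists were ribosome biogenesis factors, RNA polymerase I subunits, elongation factors, mitochondrial ribosomal proteins and p53 targets. Of all genes only 0.0212% (liver), 0.0837% (brain) and 0.00448% (testis) were called, so 0 calls say little about these lists. At an unadjusted p under 0.05 there were 3 of 119 tested in liver, 4 of 120 in brain and 0 of 120 in testis. The shares of all genes were 4.38%, 4.46% and 4.13%. The median log2 difference of 14 RNA polymerase I subunits and factors was 0.06 in liver, 0.00 in brain and -0.05 in testis. That of the 32 biogenesis factors was 0.02 in liver, -0.00 in brain and -0.08 in testis, and that of 25 mitochondrial ribosomal proteins -0.08, -0.02 and -0.04. Without testis WT 3 the testis medians of these 3 lists were -0.01, 0.02 and 0.04. On the centred scale 24 of the 32 biogenesis factors were called higher and 2 lower in WT testis than in WT liver, and 28 higher and 0 lower in brain than in liver, where 70.8% and 17.4% of all genes were called for testis against liver and 77.5% and 11.8% for brain against liver. Of the ribosomal protein genes with other names, Fau, a fusion with a ubiquitin-like protein, measured 345.7 ± 20.9 FPKM in WT liver, 157.1 ± 14.7 in WT brain and 244.6 ± 46.3 in WT testis. Rpsa measured 179.2 ± 13.9, 70.7 ± 3.78 and 51.4 ± 14.2 FPKM, and Rpl36al, an autosomal relative of Rpl36a, 1.89 ± 0.39, 0.30 ± 0.03 and 1.56 ± 0.34.

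Several members varied between libraries in step with the title number, the same way in different tissues. No label says that a number marks a mouse. A limma F test on 4 degrees of freedom, chosen after the pattern was seen, asked whether libraries of the same number deviate together within genotype. It called 4 of 79 members (5.06%), Rpl29, Rplp0, Rps3a1 and Rpl34, where 0.269% of 16737 genes were called, 45 in all. Of the members, 0 were called without the brain libraries, 1 without liver, 2 without testis and 2 in WT only. The 2 in WT only were Rpl29 and Rpl30, and in KO only Rpl29, Rplp0 and Rps3a1 were called. Of the 45, 12 were near-identical copies of a member, and 24 were pseudogenes by biotype.

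A stretch of the coding sequence of Rplp0 is shown beside that of Gm8730, a processed pseudogene on mm10 chromosome 8 from 102864845 to 102865798, to show how little separates them. They differ at 12 of 954 aligned positions (98.7% identity). Capitals mark the 4 that differ among coding bases 383 to 502 of Rplp0.

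Rplp0: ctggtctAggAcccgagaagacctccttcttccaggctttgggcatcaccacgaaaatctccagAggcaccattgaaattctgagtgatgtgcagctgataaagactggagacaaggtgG
Gm8730: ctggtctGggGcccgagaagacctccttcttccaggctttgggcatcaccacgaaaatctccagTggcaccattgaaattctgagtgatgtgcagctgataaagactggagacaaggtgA

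Scaled to the library size behind the deposited FPKM, Gm8730 had 122.9, 121.2 and 129.5 reads per 1000000 in liver WT 1 to 3, then 1.67 in KO 4, 236.2 in KO 5 and 123.7 in KO 6. In brain it had 27.7, 29.4 and 29.6 in WT 1 to 3, then 0.40, 59.9 and 28.7. In testis it had 131.1, 136.6 and 160.2, then 1.68, 273.1 and 137.7. So number 4 was close to 0 and number 5 about double the others in all 3 tissues. Gm9625, a copy on chromosome 13, did the same (0.40, 0.76 and 0.18 in number 4 of liver, brain and testis, 25.1, 7.76 and 32.35 in number 5). Rplp0 itself ran the other way, with 601.6, 134.7 and 651.8 reads per 1000000 in number 4 of liver, brain and testis and 266.4, 64.9 and 308.7 in number 5, while the other 4 libraries lay at 414.9 to 448.6, 97.7 to 102.7 and 466.4 to 565.6. The sum of Rplp0 and its 3 copies was nearly level, 614.2 to 747.6 in testis, 129.4 to 135.9 in brain and 529.0 to 603.6 in liver. The limma F test gave adjusted p = 0.00013 for Rplp0 alone and 0.78 for the sum, and 1.5e-12 for Gm8730.

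**Figure D5:**
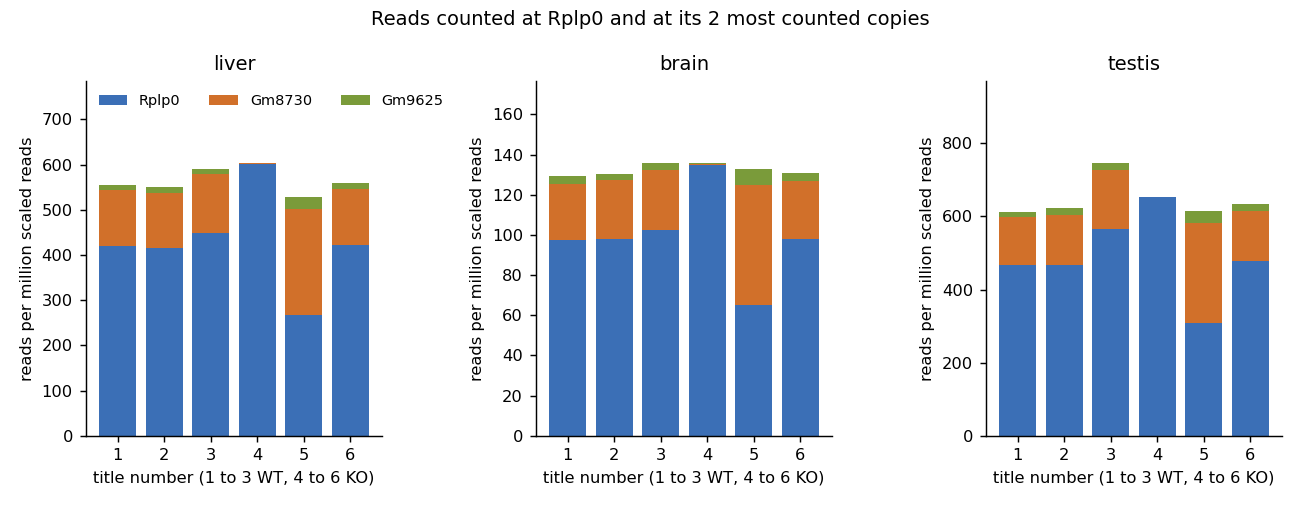
Reads per 1000000 scaled reads (y axis, from 0) counted at Rplp0 and at its copies Gm8730 and Gm9625, stacked, for title numbers 1 to 6 (x axis) in liver, brain and testis. Number 4 has almost no reads at the copies and number 5 about double, in all 3 tissues, while the height of the stack varies little; the third copy has too few reads to show and is not drawn.

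Several other members were low in libraries where a copy was high, with exceptions given below. How reads were assigned between a member and its copies was not tested. Rps3a1, a small-subunit protein, had 293.2 and 253.7 reads per 1000000 in liver WT 3 and KO 6 against 427.7 to 475.3 in the other 4, and its copies Rps3a2 and Rps3a3 had 98.8 and 68.9 in WT 3 and 91.7 and 71.7 in KO 6 against at most 3.24 elsewhere in liver. KO 6 showed this in brain and testis as well. Number 3 showed it at the copies in testis (34.7 and 31.8) but not in brain (0.84 and 0.37). Rps3a1 itself was only slightly lower in testis number 3 (100.2 against 102.6 to 109.0 in numbers 1, 2, 4 and 5). For Rpl34, number 2 was lowest in each tissue (127.1, 64.2 and 80.5 in liver, brain and testis), and the copy Rpl34-ps1 was highest there (165.2, 75.0 and 86.9). Rpl30 was lowest in number 1 of each tissue (99.95, 45.1 and 63.7), where its copy Gm12191 was highest (112.4, 52.5 and 91.4), with a limma adjusted p = 0.10. With copies added, the F test gave adjusted p = 0.82 for Rps3a1, 0.81 for Rpl34 and 0.78 for Rpl30. The sums were not level everywhere: that of Rps3a1 ranged from 103.6 to 167.3 in testis and that of Rpl30 from 89.2 to 154.2 in brain. Rps13 did not pass (limma adjusted p = 0.47), but its copy Rps13-ps1 did (1.6e-07): it had 11.5 to 39.9 reads per 1000000 in numbers 2, 3 and 6 of the 3 tissues and at most 1.35 in numbers 1, 4 and 5.

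Rpl29, a large-subunit protein, differed from these in that it was still called with its copies added. It measured 61.2 and 64.1 FPKM in liver numbers 2 and 4 against 120.9 to 129.5 in the other 4 libraries, 30.9 and 26.2 in brain against 53.2 to 62.9, and 58.7 and 59.7 in testis against 104.3 to 145.4. The 2 numbers did not overlap the other 4 in any tissue. Its copy Gm13841, on chromosome 5, had 17.45 and 16.8 reads per 1000000 there in liver against 9.74 to 13.6 elsewhere. The sum with copies was still lower, 92.1 and 94.0 in liver against 149.6 to 159.8 (limma F test, adjusted p = 0.00010 alone and 0.00145 with copies). Numbers 2 and 4 belong to different genotypes, so this variation lies within both WT and KO. Rps27a, whose liver difference is given above, varied without such a pattern: testis WT 3 and KO 4 measured 81.1 and 55.3 FPKM against 20.15 to 21.8 in the other 4, and with copies added the ratio of highest to lowest was 3.66 in testis and 2.68 in liver.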

How the data were processed

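Per the file headers, the authors deposited FPKM per gene and library with gene names, lengths and biotypes. The submitters' processing notes name HISAT2 2.0.5, featureCounts 1.5.0-p3, DESeq2 1.16.1 and mm10; the handling of reads with several matches is not given in the sources used here. Per the labels' protocols, libraries were poly-A selected with a kit that does not mark strand. FPKM gave back whole reads (largest gap 0.00018 read), whose totals are the depth.

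limma 3.58.1 (R 4.3.3, eBayes with trend) was run on log2(FPKM + 0.1) over every gene that reached 10 reads in 3 or more libraries (9 or more for the title number test), with Benjamini-Hochberg adjustment over all genes and a threshold of 0.05; tissues were compared in WT. SE and adjusted p are limma's unless an exact permutation test (scipy 1.17.1) is named. Copies were found with BLAST+ 2.17.0 (95% identity over 150 bases, or over 90% of a short coding sequence). The limma fits for genotype, title number and testis against liver were tested on simulated data with large changes. The permutation, centred, interaction and copy steps were not. Members, lists and tests were chosen with earlier results of these data known. Genes named are paralogs and parents, X-linked and stalk members, the 3 highest and lowest per tissue, and, per direction, the 3 smallest p by genotype and the 5 largest centred differences by tissue; Rpl29, Rps3a1 and the copies were named after their values were seen. Some named results are not reported here. Alternatives were other pseudocounts, filters and scalings, voom, a replicate block, left-out libraries and members summed with copies.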

Additional observations from a re-analysis of the deposited data

How the results depend on the processing

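The counts of members that changed with PCGF6 loss stayed at 0 in each tissue under every alternative run, with or without a replicate block from the file numbers. Same-numbered WT and KO files correlated at -0.0848 to 0.354 over genes, and differently numbered files at -0.343 to 0.182. In liver every same-numbered pair (0.162 to 0.354) lay above every other pair (-0.343 to 0.060). No pairing was assumed in the main tests, and what lies behind the liver values was not tested. For tissues, a replicate block from the title numbers gave 65, 50 and 73 called members. Libraries of the same title number and different tissue correlated at a median of 0.117 over all genes. Set against the libraries of its genotype in a second tissue, a library was highest with its own number in 16 of 18 comparisons. This is a hint from the data and not the design.

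Counts between tissues depend on the scaling, and they include Rpl10l, Rpl39l and Rpl3l where these pass the filter. Testis against liver gave 20 higher and 23 lower with library totals, 29 and 14 with TPM, and 33 and 27 centred on the median member. Testis against brain gave 15 and 32 with TPM, 24 and 32 centred, and 20 lower in KO libraries. Brain against liver gave 27 called with library totals (3 and 24), 38 with TPM (35 and 3) and 47 centred (37 and 10). Leaving out 1 library gave 2 to 5 higher in testis than in liver (2 without testis WT 3) and 9 to 23 lower in testis than in brain (23 without testis WT 3). When a testis library was left out, Rpl10l and Rpl39l did not pass the filter and were not counted. The share of reads moved to 1.48% in liver without mitochondrial genes, 2.43% in liver and 1.31% in brain without the 100 most abundant other genes, and 2.17%, 2.82% and 2.59% as TPM in liver, brain and testis. The cause of these shifts was not tested.

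Members called for a shared title number fell to 1 with copies summed, 1 without liver, 0 without brain and 2 without testis. In WT only 2 were called, Rpl29 and Rpl30, and in KO only Rpl29, Rplp0 and Rps3a1. The alternatives without a tissue or a genotype have fewer samples. With copies summed the genotype difference reversed for Rps27 in liver (0.0535), Rpl17 in brain (-0.0796) and Rpl34 in brain (-0.0797). That of Rpl39l in testis ranged from -0.0158 without KO 4 to 0.218 without KO 5. Uncalled X-linked differences of brain minus liver changed sign: Rpl36a gave -0.11 in KO libraries, -0.10 with copies, and -0.0555 to 0.0547 with 1 library left out, and Rps4x gave -0.000353 with a pseudocount of 1, -0.095 with copies, and -0.0359 to 0.0557 with 1 library left out. Paralog ratios lost their call for Rpl3l (0.76) and Rpl39l (1.51) in brain minus liver as reads per kilobase, and for Rps27l in testis minus brain with a pseudocount of 1 (0.79) and as reads per kilobase (0.88). With 1 library left out the last ranged from 0.745 to 1.158, Rpl22l1 in testis minus brain from 0.12 to 0.23 and Rpl7l1 in brain minus liver from -0.17 to -0.10. Genes with few reads, such as Rpl3l, are limited by depth.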
